A study of Homo sapiens with 3 samples.

Results

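Genes of the Wnt pathway, namely the ligand WNT5A, the receptor FZD7, the secreted inhibitors DKK1, DKK3 and SFRP1, the intracellular inhibitors NKD1, NKD2 and AXIN2, and the nuclear factors LEF1 and TCF7, were followed in a human melanoma line as it moved from flat to 3-dimensional growth and back. The members are all array probes that carry one of these 10 gene symbols, which gave 17 probes of the 41000 on the array, and 10 of its 30982 gene names. Of the genes, NKD2, AXIN2, DKK3, LEF1 and SFRP1 have more than 1 probe, and each probe is given on its own.

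The 1205Lu line grew out of a lung metastasis that the WM793 melanoma line formed in mice. OM is the original monolayer, grown for 14 days in RPMI-1640 with 10% fetal calf serum (the standard medium). MB are melanoma bodies, attached 3-dimensional spheroids collected after 14 days in human embryonic stem cell (hESC) medium, in which serum replacement at 20% stands in for serum. NM is the new monolayer that grew back when melanoma bodies had a further 10 days in standard medium, with the remaining bodies taken away before RNA was made. Total RNA of each population was amplified, labelled with Cy3 and put on 1 array of 1 slide. The 3 populations come from 1 line, so MB and OM differ in medium and in shape at the same time, and those cannot be told apart.

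Since each population has 1 array, cultures were not replicated, no test was made, and differences are given as ratios of signals scaled by 3 housekeeping genes. The only repeated measurement is that of 264 probes printed in 10 spots. Their spread gave, between single spots, an SD of the MB over OM log2 ratio of 0.30 where the dimmer signal was 20 to 100 a.u. (arbitrary units of fluorescence), 0.07 at 100 to 1000 a.u. and 0.03 above that. For NM over OM the SD was 0.24, 0.07 and 0.04 in the same ranges. This technical SD follows the ratios below and leaves out all variation between cultures. Of the 41000 probes, 64.7% to 71.0% were well above background on an array, and of the 17 Wnt probes all were on every array except 1 probe of AXIN2, and none was saturated. In these bulk samples fewer cells of a type and less RNA per cell cannot be told apart.

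The labelled cell type was compared with lists of markers. Of 8 melanocytic genes, 6 were well above background on OM, 6 in MB and 5 in NM, among them SOX10 and S100B, while the pigment enzymes TYR and TYRP1 were not on any array. The summed signal of the melanocytic list was 38066 a.u. in OM, 62767 in MB and 23728 in NM, nearly all of it S100B and SOX10. PMEL was lower in MB than in OM by both of its probes (log2 ratios -0.42 and -0.99). The DCT probe above background gave -0.05. Among the markers of other cells, the fibroblast list summed to 6564, 11880 and 3781 a.u. in OM, MB and NM, nearly all of it PDGFRA, with 1, 2 and 1 of 5 genes well above background and COL1A1, COL1A2 and LUM on none. The endothelial list summed to 206, 490 and 121 a.u., with 1, 2 and 1 of 3 genes well above background and CDH5 on no array. The keratinocyte list summed to 39401, 39856 and 32806 a.u., nearly all of it KRT10. On each array 2 of its 4 genes were well above background, with KRT5 and KRT1 on none. KRT14 was higher in MB than in OM by both of its probes (log2 ratios 0.84 and 0.53). The blood list summed to 230, 215 and 207 a.u., with 2 of 3 genes on each array and PTPRC on none. The sums of these last lists were closer between OM and MB. The part of these lists in the results below was not tested.

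Wnt ligands bind Frizzled receptors and their co-receptors at the cell surface. In the canonical branch this halts the destruction complex that otherwise marks beta-catenin for breakdown, so that beta-catenin reaches the nucleus and switches on target genes together with the LEF1 and TCF family of DNA-binding proteins. The pathway is known for feedback, since several of its inhibitors, AXIN2, NKD1 and DKK1 among them, are themselves target genes. In the melanocyte lineage it acts in the neural crest, where melanocytes arise, and on MITF, while WNT5A is known mainly for a branch that does not need beta-catenin and for invasive melanoma.

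Each probe is a 60-base oligonucleotide that reads 1 short stretch of a transcript. The first 30 bases of the probes on which the comparisons turn are shown, 5′ to 3′ in the transcript's sense as deposited, with the positions of the whole probe in the hg17 build, because probes of the same gene lie at different places and did not always give the same ratio.
DKK1 A_23_P24129 (chr10:53746693-53746752, plus strand): aataacaccttccaaaaacctggagtgtaa
NKD1 A_23_P429449 (chr16:49225386-49225445, plus strand): gtggggactgcataactagcccaggaaatg
NKD2 A_24_P129107 (chr5:1091255-1091314, plus strand): cccccaccgccaccctacggccacaagcgg
NKD2 A_23_P41804 (chr5:1091719-1091778, plus strand): tgaacacatctgaagccactatgtttcctg
AXIN2 A_23_P148015 (chr17:60955851-60955910, minus strand): ttttgtcttaaaggtcttgagggttgacca
AXIN2 A_23_P159395 (chr17:60956106-60956163, minus strand): ccatccccagtttatggatatgctgcttta
AXIN2 A_24_P298027 (chr17:60984850-60984909, minus strand): ttcctggagagggagaaatgcgtggatacc
LEF1 A_24_P20630 (chr4:109326350-109326409, minus strand): gcccaaaactgtcatcctaacgtttgtcat
LEF1 A_23_P213045 (chr4:109357057-109357116, minus strand): agcaggagccaaaaagacctcacattaaga
TCF7 A_23_P7582 (chr5:133511136-133511195, plus strand): cccagaaaacctccagtagtggacaacagg
FZD7 A_23_P209449 (chr2:202728436-202728495, plus strand): ttttaaaactccaacacaggttttggcatc

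Against OM, 5 of the 10 genes had a probe at least 2-fold higher in the melanoma bodies (NKD1, AXIN2, LEF1, TCF7 and FZD7) and 2 had a probe at least 2-fold lower (NKD2 and DKK1), whereas WNT5A, DKK3 and SFRP1 stayed within 2-fold. A probe was counted when the scaled ratio reached the fold and the brighter array was above 100 a.u. before scaling. By probes, 6 of 17 exceeded OM in MB by 2-fold or more, where 4.02% of all 40984 probes did, and 2 of 17 were 2-fold or more lower, where 2.35% were. At 5-fold, 0 of 17 were higher (0.564% of all probes) and 2 were lower, 1 each of DKK1 and NKD2 (0.349%). With the probes that were at background on all arrays left out, the shares of all probes at 2-fold were 5.47% higher and 3.20% lower. The median log2 ratio of MB to OM was -0.01 over the 17 probes and 0.10 over the 30130 probes well above background on some array. The 17 probes ran in both directions, from -2.65 to 2.20. The probe that just reached 5-fold was the dim NKD2 probe at 5.03-fold, the next below was NKD1 at 4.58-fold, and the AXIN2 probes A_23_P159395 at 2.09-fold and A_23_P148015 at 1.98-fold lay on each side of 2-fold.

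**Figure D1:**
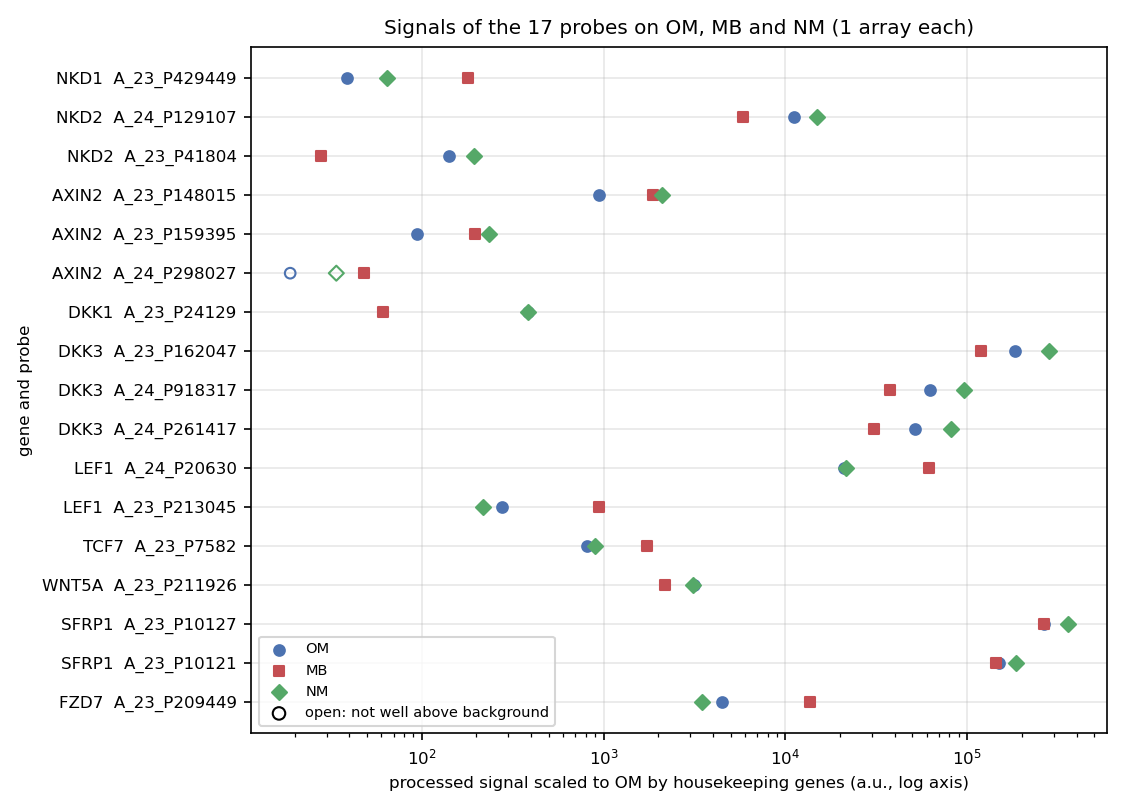
Processed signal of each of the 17 probes on the OM, MB and NM arrays (1 array each), scaled to OM by the housekeeping genes, in arbitrary units on a log axis. Open symbols are not well above background. For DKK1 the OM and NM symbols lie on each other at 382 a.u. and MB lies at 60.9, while for LEF1, TCF7 and FZD7 the MB symbol lies alone on the right.

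When the cells returned to a monolayer, every member except AXIN2 was within 2-fold of OM. In NM over OM, 2 of 17 probes were 2-fold or more higher (2.26% of all 40981 probes), both of AXIN2, and 0 were 2-fold or more lower (3.35%). At 5-fold there were 0 probes in either direction, where 0.366% of all probes were higher and 0.515% lower. The median log2 ratio of NM to OM over the 17 probes was 0.44, against 0.03 over all probes above background.

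MB and NM lay farther apart. In MB over NM, 4 of 17 probes were 2-fold or more higher (NKD1, both of LEF1 and FZD7), where 8.38% of 40992 probes were, and 6 were 2-fold or more lower (both of NKD2, DKK1 and the 3 of DKK3), where 5.59% were. At 5-fold, 0 were higher (1.58% of all probes) and 2 were lower (0.844%), again 1 each of NKD2 and DKK1. The 3 comparisons share their arrays, so that MB over OM and MB over NM both rest on the same MB array.

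**Figure D2:**
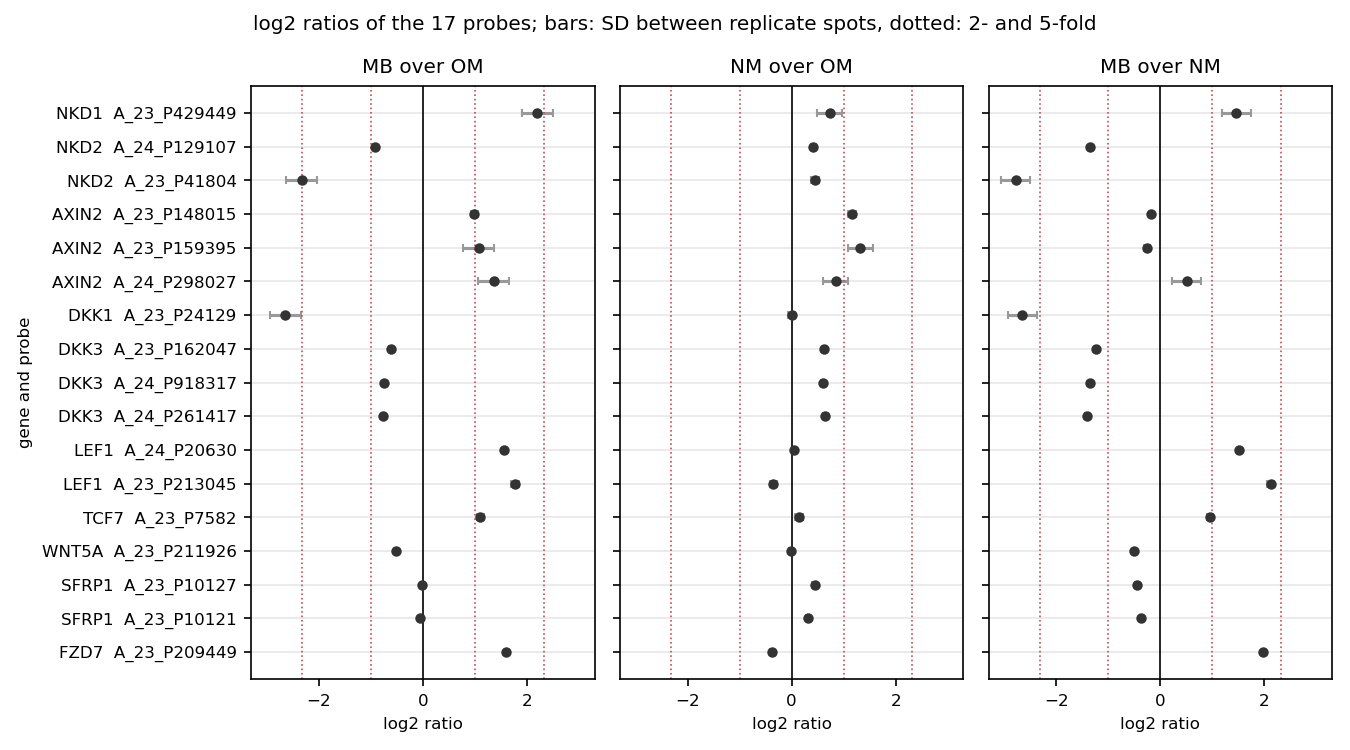
The log2 ratio of each of the 17 probes for MB over OM, NM over OM and MB over NM, after scaling by the housekeeping genes. Bars are the technical SD between single replicate spots at that signal, and dotted lines mark 2-fold and 5-fold. In MB over OM the values run from -2.65 (DKK1) to 2.20 (NKD1), and in NM over OM from -0.38 (FZD7) to 1.32 (AXIN2).

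WNT5A was the ligand among the members. Its probe A_23_P211926 gave 3136 a.u. in OM, 2140 in MB and 2711 in NM before scaling. MB was the lowest of the 3 arrays, and OM and NM were close. After scaling, WNT5A was 1.43-fold lower in MB than in OM (log2 ratio -0.52, technical SD 0.03), and the log2 ratio of NM to OM was -0.02, with a sign that turned when the housekeeping genes were averaged geometrically. The difference of MB from OM was larger than the spread between spots and did not reach 2-fold.

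FZD7, a Frizzled receptor of both branches, had the highest signal in the melanoma bodies. Its probe A_23_P209449 gave 4497 a.u. in OM, 13367 in MB and 3039 in NM. The scaled signal in MB was 3.04-fold that in OM (log2 ratio 1.60, technical SD 0.03) and 3.95-fold that in NM. NM lay 1.30-fold below OM (log2 ratio -0.38, technical SD 0.04), so the new monolayer was a little under the level of the original one.

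DKK1 is a secreted inhibitor that blocks the LRP co-receptors, and it was the member with the largest difference between MB and OM. Its probe A_23_P24129 gave 382 a.u. in OM, 59.5 in MB and 335 in NM. MB stood alone at the low end. The scaled signal was 6.27-fold lower in MB than in OM (log2 ratio -2.65, technical SD 0.30), and also 6.27-fold lower than in NM. NM returned to the level of OM, with a log2 ratio of 0.00 (technical SD 0.07). The MB signal was dim, and with normexp background correction, which adds an offset of 50 a.u. and so draws dim ratios together, DKK1 was 3.61-fold lower in MB than in OM.

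DKK3 belongs to the same family but is not known to act on the LRP co-receptors as DKK1 does. Its brightest probe, A_23_P162047, gave 182981 a.u. in OM, 116431 in MB and 246602 in NM. Probe A_24_P918317 gave 62822, 36812 and 84264 a.u., and A_24_P261417 gave 51846, 29886 and 71380, in the same order of arrays. All 3 probes had MB lowest and NM highest. They were 1.54-fold to 1.70-fold lower in MB than in OM (log2 ratios -0.62 to -0.76, technical SD 0.03), and 1.53-fold to 1.57-fold higher in NM than in OM (0.61 to 0.65, technical SD 0.04). Against NM, MB was 2.36-fold to 2.66-fold lower. The spread between the 3 probes of the gene was small beside these differences. Under quantile normalization MB was 1.69-fold, 1.99-fold and 2.16-fold lower than NM, in the order of probes above. NM was then 1.21-fold to 1.31-fold higher than OM. With spike-in scaling the probes were 1.86-fold to 2.05-fold lower in MB than in OM, so not all stayed within 2-fold.

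SFRP1, a secreted decoy that binds Wnt ligands and Frizzled receptors, differed least between MB and OM. Probe A_23_P10127 gave 265779 a.u. in OM, 257484 in MB and 315343 in NM, and probe A_23_P10121 gave 149970, 141117 and 163443 a.u. Signals were bright on all 3 arrays, and NM was highest for both probes. The log2 ratios of MB to OM were -0.01 and -0.05 (technical SD 0.03), and both became positive under quantile normalization, at 0.11 and 0.13. The log2 ratios of NM to OM were 0.44 and 0.31 (technical SD 0.04), and under quantile normalization they were 0.08 and 0.03.

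NKD1 and NKD2, the Naked cuticle proteins, bind Dishevelled and dampen the signal inside the cell, and they differed from OM in opposite directions in the melanoma bodies. NKD1 probe A_23_P429449 gave 39.0 a.u. in OM, 175 in MB and 56.8 in NM. It was bright enough to be counted on MB alone. The scaled signal was 4.58-fold higher in MB than in OM (log2 ratio 2.20, technical SD 0.30), and 1.66-fold higher in NM than in OM (0.73, technical SD 0.24). With normexp the MB difference was 2.22-fold.

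Of the NKD2 probes, A_24_P129107 gave 11115 a.u. in OM, 5715 in MB and 13048 in NM, and A_23_P41804 gave 141, 27.5 and 169 a.u. MB was lowest and NM highest for both. The brighter probe was 1.90-fold lower in MB than in OM (log2 ratio -0.93, technical SD 0.03), while the dimmer one was 5.03-fold lower (-2.33, technical SD 0.30). The probes shared the direction and differed in size. With normexp the dim probe was 2.15-fold lower, near the value of the bright one, so whether NKD2 passed 5-fold depended on the probe and on the background correction. For NM over OM the probes gave 1.34-fold and 1.36-fold higher, and for MB over NM 2.54-fold and 6.85-fold lower.

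AXIN2 is a scaffold of the destruction complex and a widely used readout of canonical signalling, and it was the member that stayed high in the new monolayer. Probe A_23_P148015 gave 945 a.u. in OM, 1829 in MB and 1850 in NM. Probe A_23_P159395 gave 94.0, 192 and 206 a.u. in the same order. OM was the lowest array for both, and MB and NM lay close together. The scaled signals in MB were 1.98-fold (log2 ratio 0.99, technical SD 0.07) and 2.09-fold (1.07, technical SD 0.30) those in OM, and in NM they were 2.23-fold (1.16, technical SD 0.07) and 2.50-fold (1.32, technical SD 0.24). MB and NM differed by log2 ratios of -0.17 and -0.25. The place of AXIN2 among the genes 2-fold higher in MB rests on A_23_P159395, whose log2 ratio fell short of 2-fold with the 75th percentile (0.88), quantile normalization (0.98), spike-in scaling (0.79), normexp (0.67) and no background subtraction (0.74). In NM over OM at least 1 of these 2 probes stayed past 2-fold under each of the 13 alternatives.

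The third AXIN2 probe, A_24_P298027, lies nearer the 5′ end of this minus-strand gene than the others and was dim. It gave 18.9 a.u. in OM and 29.8 in NM, neither well above background, and 47.2 in MB. MB was at least 2.31-fold higher than OM, with OM taken at 20.9 a.u., the lowest signal that the software marked as well above background there. This probe was below 100 a.u. on all arrays and entered no count.

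LEF1, the DNA-binding partner of beta-catenin, was higher in the melanoma bodies by both of its probes. Probe A_24_P20630 gave 21039 a.u. in OM, 60707 in MB and 18967 in NM, and A_23_P213045 gave 278, 927 and 191 a.u. MB stood alone at the high end. The scaled signals in MB were 2.95-fold (log2 ratio 1.56, technical SD 0.03) and 3.41-fold (1.77, technical SD 0.07) those in OM. In NM over OM the log2 ratios were 0.04 and -0.35 (technical SD 0.04 and 0.07), the first of which turned negative under 4 of the other scalings. MB was 2.87-fold and 4.36-fold above NM.

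TCF7, a second member of that family, was the single Wnt gene here with replicate spots. Its probe A_23_P7582 gave 808 ± 18.0 a.u. in OM (SD over 9 spots, 1 marked as an outlier left out), 1688 ± 51.4 in MB (10 spots) and 783 ± 21.2 in NM (10 spots). Spots ranged from 773 to 827 a.u. in OM, from 1624 to 1763 in MB and from 754 to 817 in NM. Before scaling, the MB spots did not overlap those of the other arrays, and the OM and NM spots did. Scaled to OM, the NM mean was 893 a.u., above the highest OM spot. The scaled signal in MB was 2.14-fold that in OM (log2 ratio 1.10), and it was under 2-fold with spike-in scaling (0.82), the 75th percentile (0.91) and quantile normalization (0.93). NM was 1.11-fold above OM (0.14), and without scaling the sign turned, at -0.04.

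**Figure D3:**
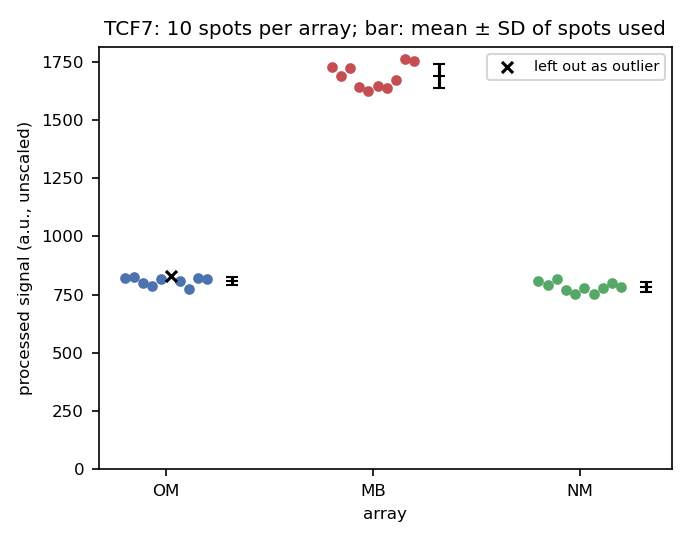
Unscaled processed signal of the TCF7 probe in each of its 10 spots on the OM, MB and NM arrays, with the mean and SD of the spots used beside them and the spot left out as an outlier drawn as a cross. The lowest MB spot lies at 1624 a.u. and the highest OM and NM spots at 827 and 817.

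Promoter windows were looked up for the 10 genes, since LEF1 and TCF7 bind DNA at a core that starts CTTTG. In the RefSeq promoter table (GRCh38.p14, 250 bases before to 50 after each start), 5 of the 10 genes were found, WNT5A and TCF7 with more than 1 window, 7 windows in all. The strings CTTTGA and CTTTGT, which share their first letters, were searched on both strands, and 26.2% of the 35116 windows in the table hold at least 1. The window of DKK1, lower in MB, holds 3 matches. One TCF7 window holds 2, and LEF1, both higher in MB, has 0 in its window. NKD2, WNT5A and the other TCF7 window have 0. The windows of DKK1, TCF7 and LEF1 are shown 5′ to 3′ with the matches in capitals. A match is a string of letters and does not show binding.
DKK1 (chr10:52314031-52314330, plus strand): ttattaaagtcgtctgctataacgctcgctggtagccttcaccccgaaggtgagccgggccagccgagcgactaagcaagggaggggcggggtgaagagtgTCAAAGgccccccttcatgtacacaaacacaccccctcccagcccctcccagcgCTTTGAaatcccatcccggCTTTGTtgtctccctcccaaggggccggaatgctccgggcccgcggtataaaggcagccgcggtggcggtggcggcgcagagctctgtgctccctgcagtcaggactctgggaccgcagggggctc
TCF7 (chr5:134123368-134123667, plus strand): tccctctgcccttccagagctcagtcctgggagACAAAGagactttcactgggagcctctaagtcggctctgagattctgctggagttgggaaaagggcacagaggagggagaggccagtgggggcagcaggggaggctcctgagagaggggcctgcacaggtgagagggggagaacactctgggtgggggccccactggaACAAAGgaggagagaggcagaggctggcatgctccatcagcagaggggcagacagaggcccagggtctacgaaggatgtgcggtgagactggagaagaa
LEF1 (chr4:108166252-108166551, minus strand): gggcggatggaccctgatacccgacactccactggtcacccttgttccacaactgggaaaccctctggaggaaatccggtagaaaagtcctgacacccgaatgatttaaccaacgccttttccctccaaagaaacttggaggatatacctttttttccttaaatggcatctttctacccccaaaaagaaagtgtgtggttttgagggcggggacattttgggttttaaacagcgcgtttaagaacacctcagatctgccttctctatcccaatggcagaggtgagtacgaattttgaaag

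To set the members among the rest of the pathway, a list of 102 Wnt genes in 10 roles was used, of which 100 have a probe on the array. Like the members, the list was chosen with earlier results of these data known. Without the 10 members it holds 139 probes. In MB over OM, 17 of them, from 14 genes, were 2-fold or more higher (12.2%, where 4.02% of all probes were) and 4 were lower (2.88%, where 2.35% were). In NM over OM, 2 were higher (1.44%, where 2.26% of all probes were) and 1 was lower (0.719%, where 3.35% were). Over the 104 of these probes above background on some array, the median log2 ratio was 0.34 for MB over OM and 0.09 for NM over OM, where all probes gave 0.10 and 0.03. Depending on the processing, 11 to 23 of the 139 probes were counted as higher in MB and 2 to 9 as lower. The share of all probes ranged from 2.32% to 7.45% higher and from 1.71% to 5.10% lower.

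The 19 ligands have 24 probes, of which 13 were well above background on some array. Of the 24, 0 counted as 2-fold above OM in MB, against a share of 4.02% over the whole array. With so few probes, a count of 0 does not set the ligands apart from that share. By the same rule 1 ligand probe counted as lower, where the array-wide share was 2.35%. WNT5B, a close relative of WNT5A, gave 695 a.u. in OM, 305 in MB and 794 in NM, a signal 2.23-fold below OM in MB. WNT6 and WNT7B differed instead in the new monolayer. One WNT6 probe (A_23_P119916) gave 248, 207 and 675 a.u. in OM, MB and NM, 3.11-fold higher in NM than in OM, and WNT7B gave 549, 915 and 203 a.u., 2.37-fold lower in NM. The other WNT6 probe, A_24_P208513, was bright and gave a log2 ratio of NM to OM of 0.53, so the probes of that gene differed in size.

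Among the 16 receptors and co-receptors, FZD1 and FZD8 lay on the side of FZD7. FZD8 gave 267 a.u. in OM, 646 in MB and 281 in NM, 2.48-fold higher in MB. The FZD1 probe A_23_P134502 gave 565, 1273 and 380 a.u., 2.30-fold higher, and its other probe gave a log2 ratio of 0.93. One probe of ROR1 (A_24_P410605), a receptor of WNT5A, was 2.29-fold lower in MB, with signals of 188, 80.2 and 309 a.u. in OM, MB and NM, and the other ROR1 probe gave a log2 ratio of -0.63. Of the receptors of R-spondins, which strengthen Wnt signals, LGR4 had 1 probe 2.59-fold higher and 1 with a log2 ratio of -0.82, so its probes ran in opposite directions.

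Of the other secreted and surface inhibitors, 3 of 22 probes, from APCDD1 and ZNRF3, were 2-fold or more higher in MB (4.02% of all probes) and 0 were lower (2.35%), and the 12 above background on some array had a median log2 ratio of 0.17. Of the other intracellular inhibitors and destruction complex genes, 1 of 12 probes, that of CTNNBIP1, was higher and 0 were lower, with a median of 0.16. APCDD1, a membrane inhibitor, gave 132 a.u. in OM, 573 in MB and 251 in NM. It was 4.43-fold higher in MB and 2.16-fold higher in NM than in OM. ZNRF3, an enzyme that removes Frizzled receptors from the surface, was 3.87-fold and 2.56-fold higher in MB by its 2 probes, and log2 ratios of NM to OM were -0.31 and -0.25. CTNNBIP1, which keeps beta-catenin from the TCF proteins, was 2.24-fold higher in MB, with 19149, 42023 and 11381 a.u. in OM, MB and NM.

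Of beta-catenin itself (CTNNB1), 1 probe gave 1377, 2892 and 834 a.u. and was 2.15-fold higher in MB than in OM, and the brighter probe gave a log2 ratio of 0.85. Beside LEF1 and TCF7, the co-activators BCL9 and PYGO1 were 2.54-fold and 2.09-fold higher in MB, while TCF7L1, a family member known mostly as a repressor, was 2.44-fold lower, at 628 a.u. in OM, 251 in MB and 371 in NM. Over the 11 probes of this role the median log2 ratio of MB to OM was 1.07, and 0.59 over the 8 that are not of LEF1 or TCF7.

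Over the 17 genes listed as canonical targets, which include 6 of the members, 10 of 32 probes exceeded OM by 2-fold or more in MB (4.02% of all probes did) and 3 were lower (2.35%). Without the members, 5 of 22 were higher and 1 was lower, but these genes too were listed with earlier results known. The higher ones include the APCDD1 and ZNRF3 probes already counted among the inhibitors, because a gene may hold more than 1 role. TNFRSF19, a receptor of the tumour necrosis factor family, gave 3714 a.u. in OM, 9535 in MB and 3751 in NM by its brighter probe and was 2.63-fold and 3.56-fold higher by its 2 probes. SP5, a transcription factor, had 1 probe 2.43-fold lower (A_32_P74615) and 2 with log2 ratios of 0.60 and 0.43, so its direction depended on the probe. In the planar polarity and calcium branch, 5 of 18 probes were 2-fold or more higher and 0 lower, where 4.02% and 2.35% of all probes were. They belong to PRICKLE1 (4.77-fold, 31.6 a.u. in OM and 147 in MB), PRICKLE2 (2.67-fold), CELSR2 (2.37-fold) and CAMK2D (2.39-fold and 2.53-fold). The other CELSR2 probe gave a log2 ratio of 0.31, and the brightest CAMK2D probe gave 0.90.

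**Figure D4:**
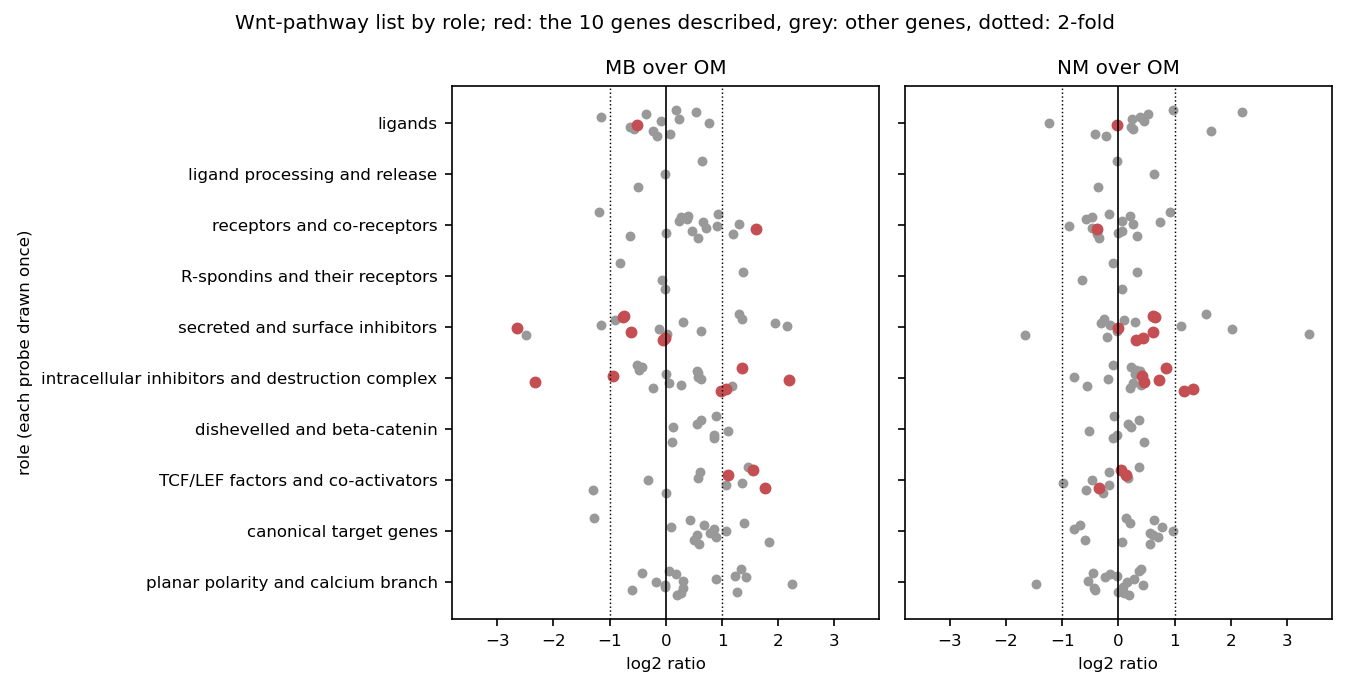
The log2 ratio of each probe of the Wnt list that was well above background on some array, for MB over OM and NM over OM, by role, with each probe drawn once under its first role. Red points are the 10 genes described, grey points the rest, and dotted lines mark 2-fold. For MB over OM the probes of the TCF/LEF role, members included, have a median of 1.07 and those of the ligands -0.15.

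**Figure D5:**
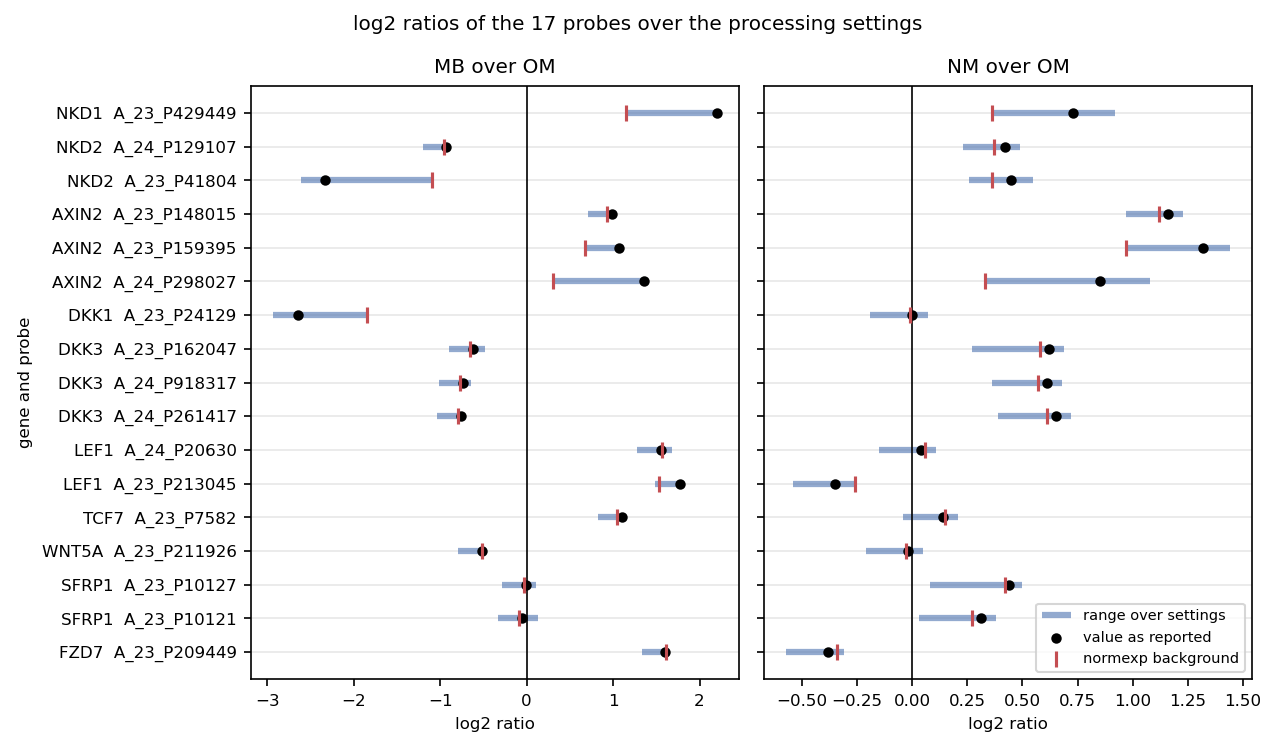
The range of the log2 ratio of each of the 17 probes over 11 other ways of processing (blue bars), with the value as reported (black) and that with normexp background correction (red), for MB over OM and NM over OM. The probes that move most are dim ones, such as NKD1, from 2.20 to 1.15.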

How the data were processed

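Total RNA from OM, MB and NM was hybridised to 1-colour Agilent 4 × 44K arrays, 1 each. Spot intensity, as the authors deposited it, comes from Agilent Feature Extraction (9.5 per the labels, 9.5.3.1 per the file headers). In these files the background subtracted was the software's fitted spatial surface on all 45015 spots of each array, the result was divided by a detrending factor, and low spots hold a surrogate (7000 to 9481 non-control spots per array). No scaling between arrays was applied. The deposited value table holds the same intensity values (130128 of 130128 within 0.1%).

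Control and outlier spots (77 to 81 per array) were left out, spots of a probe were averaged, and arrays were scaled to 3 housekeeping genes (the mean of ACTB, GAPDH and HSP90AA1, each from its probe in 10 spots) (131555 a.u. in OM, 128596 in MB, 115402 in NM). Which HSP90 gene the study used is not given in the sources used here. A call needs a ratio of 5 or 2 with the brighter array above 100 a.u. The technical SD is the root mean square, over probes with 10 spots, of the SD of log2 ratios between spots at the same place on 2 arrays. A fold against a signal at background is a lower bound. The number of arrays limits the precision.

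The members, the Wnt list and the marker lists were chosen with earlier results of these data known. DKK1 and NKD2 are also on the study's own list of genes lower in MB, drawn from these arrays, so their direction here is not independent of it. Named genes were all 10 members with every probe and, of the Wnt list, genes with a probe past 2-fold in MB or NM over OM. List genes were matched by array name or through the accession in a current gene table (GRCh38.p14). Alternatives were other scalings (75th percentile, quantile, none, 8 spike-in probes, geometric mean, HSP90AB1), no background subtraction, normexp with an offset of 50 (R 4.3.3, limma 3.58.1), outlier spots kept, other rules for dim signals and the deposited value table. The script that counts calls was tested on simulated data with known folds, which it recovered. The scripts ran in Python 3.11.15 (pandas 2.3.3, numpy 2.4.6, matplotlib 3.10.9).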

Additional observations from a re-analysis of the deposited data

How the results depend on the processing

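The 12 counts of member probes were recomputed under 13 alternatives, which gave 156 values, of which 148 were within 1.5 times the reported count. With normexp and with no background subtraction, the count of probes 5-fold or more lower was 0 in place of 2, in MB over OM and likewise in MB over NM, so DKK1 and NKD2 passed 2-fold but not 5-fold there. Of all probes, 0.102% and 0.115% were that much lower in MB than in OM there, in place of 0.349%. Against NM the shares were 0.381% and 0.459%, in place of 0.844%. With spike-in scaling 5 probes were 2-fold or more lower in MB than in OM in place of 2, where 4.17% of all probes were in place of 2.35%. The count 2-fold or more higher in NM over OM was 1 in place of 2 with no scaling, with normexp and with no background subtraction. The shares of all probes there were 1.49%, 1.75% and 1.95%, in place of 2.26%. The count 2-fold or more higher in MB over OM was 6 as reported and 4 to 7 otherwise. The share of all probes was 4.02% as reported and 2.32% to 7.45% otherwise. The rules on the minimum signal and on both arrays being above background change counts and no ratio. Of 561 log2 ratios recomputed under the other 11, 219 moved by more than the technical SD, and no ratio past 2-fold turned its sign. The 75th percentile moved the median log2 ratio of MB to OM over all probes by -0.19, quantile normalization by -0.10 and spike-in scaling by -0.28, and the member ratios moved with it, while spike-in scaling, with 2-fold as the limit, left LEF1, FZD7 and NKD1 above it. Why settings differ was not tested, except that an offset of 50 a.u. draws dim ratios toward 0 by its construction. No paired analysis was possible because each population has 1 array, and for the same reason no replicate could be left out.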

Other observations

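Some Wnt inhibitors and a ligand were dim in OM and MB and brighter in NM. These were picked after their values were seen and none reached 100 a.u., so none was counted. The lowest signal marked as well above background was 29.1 a.u. on NM, 20.9 on OM and 19.4 on MB. SOSTDC1, a secreted inhibitor, was not well above background on OM or MB and gave 38.2 a.u. in NM, at least 2.09-fold above OM. SFRP4, of the same family as SFRP1, reached 62.3 a.u. in NM from background on the other arrays, at least 3.40-fold above OM. WNT11, a ligand of the branch that does not need beta-catenin, gave 40.5 a.u. in OM, 44.7 in MB and 70.2 in NM by probe A_24_P35643.

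MYC and CCND1, growth genes listed as canonical targets, stayed within 2-fold of OM in MB and in NM by the 5 probes well above background, and a further MYC probe, A_24_P38363, was at background throughout. CCND1 gave log2 ratios of MB to OM of 0.50 to 0.86 and of NM to OM of -0.60 to -0.79 over 3 probes. MYC gave 0.90 and 0.10 for MB over OM and 0.70 and 0.77 for NM over OM over its 2 probes above background. MITF, a target in melanocytes, gave 0.55 to 1.08 for MB over OM and 0.57 to 0.98 for NM over OM over the 3 probes above background.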
